A study of Homo sapiens with 2 samples.

Results

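The interferon response and MHC class I genes were 44 genes chosen by symbol for their known roles, and all 44 were among the 23321 genes of the deposited expression table. They were compared in AGS, an established human gastric adenocarcinoma line. The 2 groups were AGS cells stably transfected with a GGT7 plasmid (genotype given as GGT7 ectopic expression) and AGS cells stably transfected with a negative control plasmid (genotype given as WT). Each group held 1 library of total RNA, taken at 2 weeks, from cells grown in the same serum-supplemented medium. GGT7 encodes a member of the gamma-glutamyltransferase family, and the title of the series links it to RAB7 and mitophagy in gastric cancer. The sources used here do not say whether a transfected line was 1 clone or a pool, so an effect of GGT7 and a difference between 2 transfected lines cannot be told apart. With 1 library per group there was no replicate check and no test of groups, and differences are described with their counting error only. In bulk RNA, fewer cells that express a gene and less RNA per cell cannot be told apart.

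Interferons bind receptors at the cell surface, and JAK kinases then activate STAT factors. A complex that holds STAT2 and IRF9 binds the interferon-stimulated response element, the ISRE, in front of antiviral genes, while STAT dimers bind the gamma-activated site, the GAS. MHC class I molecules, which show peptides of the cell's own proteins to T cells, are made of a heavy chain and B2M, and their genes are driven by NLRC5 and respond to interferon. The values compared here are RNA levels in a carcinoma line grown without immune cells, and whether the pathway was at rest was not tested.

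The core letters of the ISRE and of the GAS were sought in the promoters of these genes. Promoter windows of RefSeq on GRCh38.p14, each 300 bases from 250 before to 50 after a gene start, were matched for 38 of the 44 genes, some with several starts. The core of the ISRE, GAAA and again GAAA with any 2 bases between, was sought on both strands, so that TTTC, 2 bases and TTTC count as well. It was present for 25 of the 38 genes, 65.8%, against 1195 of all 27305 genes with a window, 4.38%. The letters TTCNNNGAA, the core of the GAS, read the same on both strands and were present for 12 of the 38, 31.6%, against 9.38% of all genes. The matches of both motifs can overlap, 7 genes held both and 8 held neither. A match is a stretch of letters, not a site shown to be bound. The stretches below are shown 5′ to 3′ on the strand of the gene, because they belong to the genes whose values are compared afterwards. Capitals mark the motif, which is the ISRE core in the first 9, the GAS core in IRF1, and in HLA-C and HLA-B the letters TTTCACTT of the class I form of the element, which lacks the strict core. These letters were chosen after the HLA-B and HLA-C windows were read, so both genes held them in advance. Counting them in, the letters were found on either strand for 11 of the 38 genes, against 2.03% of all genes. The letters also stand within TTTCACTTTC, a form of the ISRE core, so this share overlaps that of the ISRE core.
B2M: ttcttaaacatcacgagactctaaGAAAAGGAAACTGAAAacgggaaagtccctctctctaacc
TAP1: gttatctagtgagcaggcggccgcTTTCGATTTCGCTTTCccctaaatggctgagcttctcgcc
TAP2: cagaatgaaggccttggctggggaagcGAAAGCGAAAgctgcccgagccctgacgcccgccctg
DDX60: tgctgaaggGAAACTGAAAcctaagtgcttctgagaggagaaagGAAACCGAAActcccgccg
ISG15: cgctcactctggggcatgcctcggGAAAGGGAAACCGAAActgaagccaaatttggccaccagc
IFIT1: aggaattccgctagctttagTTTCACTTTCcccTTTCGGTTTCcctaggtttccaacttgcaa
IFIT3: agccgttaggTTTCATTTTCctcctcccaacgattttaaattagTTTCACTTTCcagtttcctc
OAS3: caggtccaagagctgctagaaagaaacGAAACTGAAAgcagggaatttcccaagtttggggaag
IFI6: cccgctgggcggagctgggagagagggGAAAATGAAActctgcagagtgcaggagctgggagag
IRF1: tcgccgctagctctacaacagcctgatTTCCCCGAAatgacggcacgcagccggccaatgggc
HLA-C: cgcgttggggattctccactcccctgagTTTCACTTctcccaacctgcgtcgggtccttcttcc
HLA-B: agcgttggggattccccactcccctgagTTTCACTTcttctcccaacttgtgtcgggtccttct

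The stretches of B2M and ISG15 lie at chr15:44711349-44711412 and chr1:1013360-1013423 on the plus strand. Those of IFIT1, IFIT3 and OAS3 lie at chr10:89392487-89392549, chr10:89327831-89327894 and chr12:112938304-112938367, also on the plus strand. Those of TAP1, TAP2, HLA-C and HLA-B lie on the minus strand at chr6:32853799-32853862, chr6:32838761-32838824, chr6:31272208-31272271 and chr6:31357299-31357362. DDX60, IFI6 and IRF1 are on the minus strand as well, with stretches at chr4:168318787-168318849, chr1:27672312-27672375 and chr5:132490862-132490924. The ISRE core was spread unevenly over the roles: 9 of 10 antiviral effectors held it, 7 of 9 genes of peptide supply and loading, 5 of 7 other interferon-stimulated genes, 2 of 5 RNA sensors and partners, 2 of 4 class I chains and 0 of 3 transcription regulators.

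**Figure D1:**
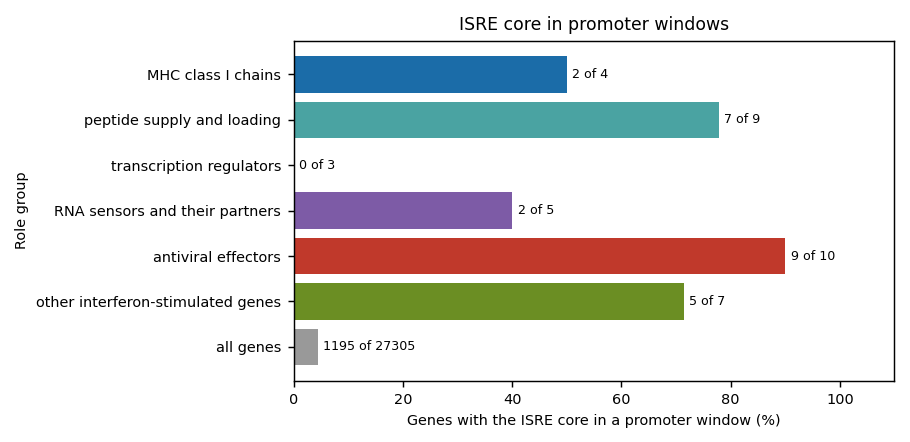
Share of genes whose RefSeq promoter window holds the ISRE core on either strand, in percent, for the 6 role groups and for all genes with a window; the bars are labelled with the counts. Antiviral effectors reach 9 of 10 genes, all genes 4.38%, and none of the 3 matched transcription regulators holds the core.

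GGT7 itself was at 470 counts (12.2 FPKM) in the GGT7 library and 90 counts (1.78 FPKM) in the control library, FPKM being the count adjusted for the length of the gene and the depth of the library. The summed counts were 10289206 in the GGT7 library and 13482913 in the control library. Epithelial markers were present, with KRT7 at 100.6 and 82.9 FPKM and KRT18 at 117 and 111 FPKM in the GGT7 and control libraries, but they differed in direction: KRT8 was at 45.4 and 69.96 FPKM in the same order, past 1.5-fold lower, and ELF3 at 12.2 and 17.7 FPKM. EPCAM was at 1.57 and 2.29 FPKM, and CDH1, CDH17, TFF1 and TFF2 were under 1 FPKM in both libraries. Of 8 stromal and endothelial markers 3 were measured, COL1A1, LUM and CDH5, with a summed level over the 8 of 8.25 FPKM in the GGT7 library and 10.2 FPKM in the control library. The part of these differences in the values of the members was not tested. Of 10 immune cell markers analysed, 9 were under 1 FPKM in both libraries, with PTPRC, which marks all leukocytes, at 5 counts in each. CD68, found in lysosomes of many cells, was at 293 counts in the GGT7 library and 70 in the control library and shares most of its exonic bases with AC016876.2, a further gene on its strand.

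The group of 44 genes differed little between the libraries. Of the 44, 36 reached 1 FPKM in the higher library and are called measured here, and 35 of these differed by less than 1.5-fold after 1 FPKM was added to both values, as did 91.1% of 14215 measured genes of the whole table. Past 1.5-fold, 1 member was higher in the GGT7 library, against a background of 3.9% of all measured genes, and 0 were lower, against 4.97%. Past 2-fold there were 0 in either direction, against 0.858% of all measured genes higher and 1.16% lower. A difference above 0, higher in the GGT7 library, was found for 23 of 36, or 63.9%, against 45.2% of all measured genes, and a difference below 0 for 13 of 36, against 54.8%. The median difference, log2((GGT7 FPKM + 1)/(control FPKM + 1)), was 0.09 for the members and -0.03 for all measured genes. Folds given for single genes are ratios of FPKM, GGT7 over control, with exact 95% intervals that cover counting error only. The interval lay above 1 for 14 of the 36 measured members, against 19.6% of all measured genes. It lay below 1 for 9, against 25.4%, and held 1 for 13. Intervals narrow as counts rise, so these shares also depend on level. The median level in the GGT7 library was 6.51 FPKM for the measured members and 4.04 FPKM for all measured genes.

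**Figure D2:**
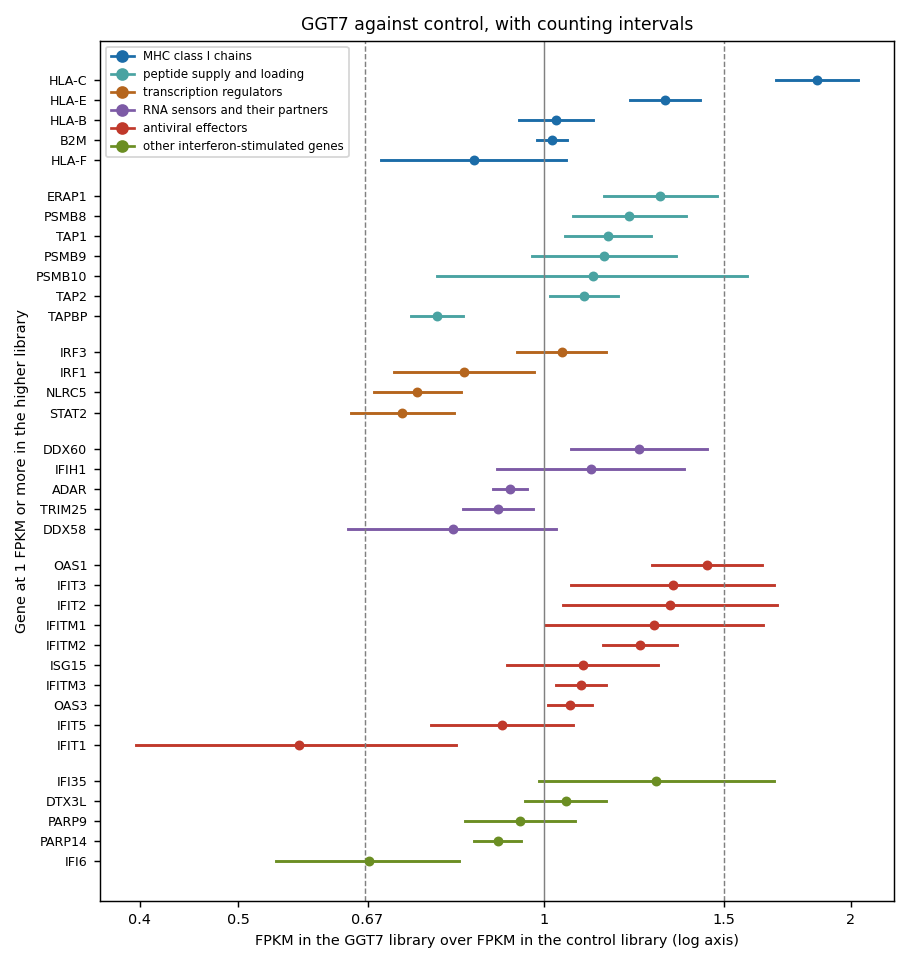
FPKM in the GGT7 library over FPKM in the control library, on a log axis, for the 36 measured genes in 6 role groups; points are the ratios, bars the exact 95% counting intervals, and dashed lines mark 1.5-fold. HLA-C at 1.85 lies farthest above 1 and IFIT1 at 0.574 farthest below.

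The heavy chains of MHC class I did not move together. HLA-C (ENSG00000204525) lies on the minus strand of chromosome 6 at 31268749 to 31272130 (GRCh38). It was counted 1105 times in the GGT7 library and 781 times in the control library. Its level was 18.0 FPKM in the GGT7 library and 9.72 FPKM in the control library, a fold of 1.85 (1.69 to 2.03). It was the member past 1.5-fold, with a log2 difference of 0.83. HLA-B (ENSG00000234745), its neighbour, whose heavy chain is the most variable in humans, was at 16.8 FPKM in the GGT7 library and 16.4 FPKM in the control library, a fold of 1.03 (0.943 to 1.12). The counting interval of HLA-C stood away from 1 and that of HLA-B held 1. Summed over HLA-B and HLA-C there were 2096 counts in the GGT7 library and 2047 in the control library, a fold of 1.34 (1.26 to 1.43); this sum was chosen after the values were seen.

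HLA-C and HLA-B share much of their sequence. Their longest transcripts were 92.4% identical over 1191 aligned bases, and their promoter windows, of which a part is printed above, were identical at 269 of 304 aligned positions, 88.5%. The letters TTTCACTT stood in both. No source used here says how reads that match several class I genes were counted, and the alleles of AGS can differ from the reference sequence, so the split between HLA-C and its relatives is uncertain. The part of this in the HLA-C value was not tested.

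The other class I chains were closer to 1. HLA-E, a conserved heavy chain recognised by natural killer cells, was at 30.5 FPKM in the GGT7 library and 23.2 FPKM in the control library, a fold of 1.31 (1.21 to 1.42). HLA-F, a nonclassical heavy chain, was at 1.72 FPKM in the GGT7 library and 2.02 FPKM in the control library, a fold of 0.853 (0.691 to 1.05), and it overlaps an antisense gene. B2M (ENSG00000166710, GRCh38 chromosome 15, 44711487 to 44718877, plus strand), the light chain that every class I molecule needs, had 5967 counts in the GGT7 library and 7685 in the control library. Its level of 45.5 FPKM in the GGT7 library and 44.7 FPKM in the control library gave a fold of 1.02 (0.983 to 1.05), the narrowest interval among the 44 genes. The light chain was thus level between the libraries.

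Most genes of peptide supply and loading were slightly above the control, with TAPBP on the other side. Of 7 measured genes 6 had a difference above 0, against 45.2% of all measured genes, with a median of 0.17, and 7 of 7 lay within 1.5-fold, against 91.1%. TAP1 and TAP2, which together form the transporter that carries peptides into the endoplasmic reticulum, had folds of 1.15 (1.05 to 1.27) and 1.09 (1.01 to 1.18). TAP1 had 13.8 FPKM in the GGT7 library and 11.9 FPKM in the control library, and TAP2 had 10.7 and 9.79 FPKM in the same order. TAPBP, tapasin, which holds empty class I molecules at the transporter, was lower, with 20.3 FPKM in the GGT7 library and 25.9 FPKM in the control library, a fold of 0.784 (0.740 to 0.831). ERAP1, the aminopeptidase that trims peptides to their final length, was at 4.57 FPKM in the GGT7 library and 3.52 FPKM in the control library, a fold of 1.30 (1.14 to 1.48).

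The inducible subunits of the immunoproteasome, which replace constitutive subunits and change the peptides that are cut, had folds in a narrow range. PSMB8 was at 14.8 FPKM in the GGT7 library and 12.2 FPKM in the control library, a fold of 1.21 (1.07 to 1.38). PSMB9, whose gene overlaps PSMB8 over 139 exonic bases, was at 6.61 FPKM in the GGT7 library and 5.77 FPKM in the control library, a fold of 1.15 (0.973 to 1.35). PSMB10 was at 1.86 FPKM in the GGT7 library and 1.66 FPKM in the control library, a fold of 1.12 (0.784 to 1.58). The constitutive counterparts PSMB5, PSMB6 and PSMB7 had folds of 1.22 (1.11 to 1.35), 1.07 (0.954 to 1.21) and 1.10 (1.03 to 1.18), so the inducible and the constitutive subunits lay in the same range. ERAP2, a second aminopeptidase, and TAPBPL, a relative of tapasin, did not reach 1 FPKM. ERAP2 had 80 counts in the GGT7 library and 100 in the control library, a fold of 1.05 (0.771 to 1.42). TAPBPL had 12 and 26 counts in the same order, a fold of 0.605 (0.278 to 1.24).

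**Figure D3:**
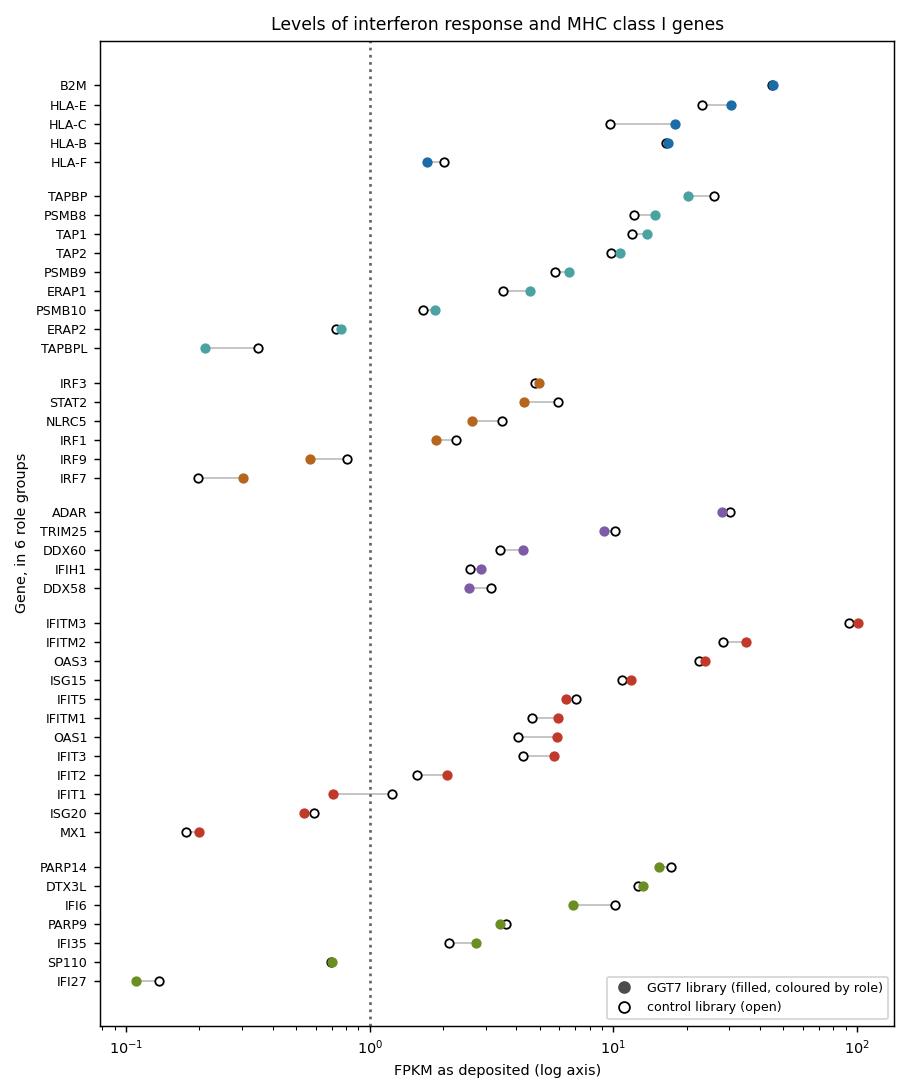
Deposited FPKM on a log axis for the 44 genes in 6 role groups, ordered within a group by level in the GGT7 library; filled points are the GGT7 library, open points the control library, and the dotted line marks 1 FPKM. IFITM3 lies highest, at 101 and 93.3 FPKM, and IFI27 lowest, at 0.110 and 0.136 FPKM.

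The transcription regulators were mostly lower in the GGT7 library. Of 4 measured genes 3 had a difference below 0, against 54.8% of all measured genes, and their counting intervals lay below 1, against 25.4%. The median of the 4 was -0.24. NLRC5, the transactivator of class I genes, had 644 counts in the GGT7 library and 1125 in the control library, or 2.62 and 3.49 FPKM, a fold of 0.750 (0.680 to 0.827). STAT2 had 456 counts in the GGT7 library and 824 in the control library, or 4.29 and 5.92 FPKM, a fold of 0.725 (0.645 to 0.814). IRF1, which is induced by interferon gamma and activates class I genes, had 261 counts in the GGT7 library and 410 in the control library, a fold of 0.834 (0.711 to 0.977), and it shares 1716 exonic bases with a gene on the other strand. None of the 3 was past 1.5-fold. IRF3, which is switched on after RNA or DNA is sensed, was at 4.97 FPKM in the GGT7 library and 4.78 FPKM in the control library, a fold of 1.04 (0.940 to 1.15).

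IRF9 and IRF7 were below 1 FPKM. IRF9, a DNA-binding partner of STAT2, had 46 counts in the GGT7 library and 86 in the control library, a fold of 0.701 (0.479 to 1.01). Its longest transcript is contained whole in that of AL136295.5, a gene on the same strand, which had 125 counts in the GGT7 library and 101 in the control library. Alone, AL136295.5 had a fold of 1.62 (1.24 to 2.13). The sum of both genes gave 171 and 187 counts, a fold of 1.20 (0.968 to 1.48). The intervals of IRF9 and of the sum held 1, so no direction is read for IRF9. Reads can be shared between these genes, and how many were shared was not measured. IRF7, the regulator of interferon alpha genes, had 28 counts in the GGT7 library and 24 in the control library. Its fold was 1.53 (0.854 to 2.76).

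RNA sensors and their partners lay close to the control level. DDX58, which encodes RIG-I, a sensor of viral RNA ends, had 119 counts in the GGT7 library and 192 in the control library, a fold of 0.812 (0.641 to 1.03). IFIH1, which encodes MDA5, a sensor of long double-stranded RNA, had 167 counts in the GGT7 library and 197 in the control library, a fold of 1.11 (0.898 to 1.37). The intervals of both sensors held 1. DDX60, a helicase linked to RIG-I signalling, had 327 counts in the GGT7 library and 346 in the control library, a fold of 1.24 (1.06 to 1.44). TRIM25, the ubiquitin ligase that acts on RIG-I signalling, was at 9.16 FPKM in the GGT7 library and 10.2 FPKM in the control library, a fold of 0.900 (0.831 to 0.974). ADAR, which edits double-stranded RNA and keeps it from being sensed, was at 27.9 FPKM in the GGT7 library and 30.1 FPKM in the control library, a fold of 0.926 (0.891 to 0.962). The median of the 5 was -0.11.

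Antiviral effectors were above 0 in 8 of 10 measured genes, against 45.2% of all measured genes, with a median of 0.19, and 10 of 10 lay within 1.5-fold, against 91.1%. OAS1, a synthetase that activates RNA decay, had 540 counts in the GGT7 library and 490 in the control library, or 5.86 and 4.06 FPKM, a fold of 1.44 (1.28 to 1.64). Its neighbour and relative OAS3 was at 23.9 FPKM in the GGT7 library and 22.5 FPKM in the control library, a fold of 1.06 (1.01 to 1.11). The intervals of these neighbours did not overlap. ISG15, the ubiquitin-like protein that is joined to other proteins after interferon, was at 11.9 FPKM in the GGT7 library and 10.9 FPKM in the control library, a fold of 1.09 (0.919 to 1.29).

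The IFIT genes, whose proteins bind viral RNA, lie side by side on chromosome 10 on the plus strand and differed in direction. IFIT1 had 46 counts in the GGT7 library and 105 in the control library, or 0.707 and 1.23 FPKM, a fold of 0.574 (0.397 to 0.819). IFIT2 had 140 and 138 counts in the GGT7 and control libraries, a fold of 1.33 (1.04 to 1.69). IFIT3 had 155 and 152 counts in the same order, a fold of 1.34 (1.06 to 1.68). IFIT1 was thus lower and its neighbours IFIT2 and IFIT3 higher, with intervals that did not overlap. IFIT5 had 265 counts in the GGT7 library and 382 in the control library, a fold of 0.909 (0.774 to 1.07). Summed over the 4 genes there were 606 counts in the GGT7 library and 777 in the control library, a fold of 1.02 (0.917 to 1.14), a sum chosen after the values were seen. At 46 to 105 counts IFIT1 rested on few reads, and on the log2(FPKM + 1) scale its difference was -0.39, within 1.5-fold.

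The IFITM genes encode membrane proteins that hinder the entry of viruses. IFITM3, the most abundant of the 44 genes, was at 101 FPKM in the GGT7 library and 93.3 FPKM in the control library, a fold of 1.09 (1.03 to 1.15). IFITM2 was at 35.2 FPKM in the GGT7 library and 28.4 FPKM in the control library, a fold of 1.24 (1.14 to 1.35). IFITM1 was at 5.94 FPKM in the GGT7 library and 4.64 FPKM in the control library, a fold of 1.28 (1.00 to 1.64). All 3 lay on the same side of 1. IFITM1 and IFITM2 overlap over 351 exonic bases on the same strand, so reads can be shared between them. MX1, a GTPase that blocks viral particles, is a standard sign of interferon signalling. It had 25 counts in the GGT7 library and 29 in the deeper control library, a fold of 1.13 (0.634 to 2.00). The nuclease gene ISG20 had 70 and 101 counts in the same order, a fold of 0.908 (0.660 to 1.24). Both were below 1 FPKM.

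Of the other interferon-stimulated genes, IFI6 stood lowest. IFI6, a small membrane protein with antiviral activity, had 143 counts in the GGT7 library and 279 in the control library, or 6.83 and 10.2 FPKM, a fold of 0.672 (0.545 to 0.825). Its log2 difference of -0.51 was the lowest of the measured members and within 1.5-fold. PARP9 and DTX3L, whose proteins form a complex that adds ubiquitin, start 339 bases apart on opposite strands of chromosome 3. PARP9 was at 3.44 FPKM in the GGT7 library and 3.64 FPKM in the control library, a fold of 0.946 (0.835 to 1.07), and DTX3L was at 13.3 and 12.7 FPKM in the same order, a fold of 1.05 (0.957 to 1.15). Both intervals held 1. PARP14, an ADP-ribosyltransferase nearby on chromosome 3, was at 15.5 FPKM in the GGT7 library and 17.2 FPKM in the control library, a fold of 0.900 (0.853 to 0.949). IFI35 was at 2.74 FPKM in the GGT7 library and 2.13 FPKM in the control library, a fold of 1.29 (0.987 to 1.68). SP110, a nuclear body protein, had 72 counts in the GGT7 library and 94 in the control library, a fold of 1.00 (0.728 to 1.38). IFI27 had 8 and 13 counts in the same order, a fold of 0.806 (0.290 to 2.10).

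Members with and without the ISRE core are described side by side, with no test of the difference. The 21 measured members with the core had a median log2 difference of 0.10, with a range of -0.51 to 0.35. Above 0 were 14 of the 21, against 45.2% of all measured genes. The 10 measured members with a window and no core had a median of -0.04, with a range of -0.39 to 0.83, and 5 were above 0. The ranges overlapped from -0.39 to 0.35. The 8 measured members with the GAS core had a median of 0.25, with a range of -0.18 to 0.44, and 6 were above 0. The 23 without it had a median of 0.03, with a range of -0.51 to 0.83, and 13 were above 0. The range with the GAS core thus lay inside the range without it. Over the whole table, the 330 measured genes with the ISRE core had a median of -0.01. The 734 with the GAS core had -0.03. The 9 members on chromosome 6, all in the MHC region, had a median of 0.17, and the 27 measured members elsewhere had 0.06.

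The rest of the pathway was read from 8 further lists that hold none of the 44 genes. Of 114 genes analysed in them 92 were measured, with a median of -0.01. Past 1.5-fold, 3 were higher, against 3.9% of all measured genes, and 2 lower, against 4.97%. Above 0 were 44 of the 92, against 45.2% of all measured genes. All 9 interferon receptor and JAK kinase genes were measured and lay within 1.5-fold, as did 91.1% of all measured genes. IFNAR1 and IFNAR2, the receptor of type I interferons, had folds of 0.927 (0.841 to 1.02) and 1.07 (0.909 to 1.25). IFNGR1 and IFNGR2, the receptor of interferon gamma, were at 1.45 (1.26 to 1.66) and 1.23 (1.09 to 1.39), both with intervals above 1. IL10RB, a chain shared by the receptors of interferon lambda and interleukin-10, was at 1.42 (1.21 to 1.67) and IFNLR1, its partner for interferon lambda, at 0.971 (0.788 to 1.19). Of the kinases, JAK1 was at 1.31 (1.25 to 1.37), JAK2 at 1.09 (0.939 to 1.26) and TYK2 at 0.834 (0.754 to 0.922).

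SOCS3, an inhibitor of cytokine receptors, was the lowest of the 9 measured STAT and IRF factors and inhibitors, with 18.2 FPKM in the GGT7 library and 26.5 FPKM in the control library, a fold of 0.687 (0.620 to 0.761). PTPN2, a phosphatase that acts on JAK1, was the highest at 1.32 (1.12 to 1.55). Among 11 measured sensing adaptors and kinases 8 were below 0, against 54.8% of all measured genes. The counting interval held 1 for 8 of the 11 and lay below 1 for 3. ZC3HAV1, the zinc finger antiviral protein, was past 1.5-fold lower, with 1562 counts in the GGT7 library and 3355 in the control library, a fold of 0.610 (0.574 to 0.648). RNF135 lay at the upper end of this list at 1.09 (0.863 to 1.38). Of the interferon ligands IFNE alone was analysed, with 16 counts in the GGT7 library and 20 in the control library. Its fold was 1.05 (0.508 to 2.13).

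Of 31 further interferon-stimulated genes that were measured, 12 were above 0, against 45.2% of all measured genes. Within 1.5-fold lay 28 of the 31, against 91.1%, and their median was -0.05. APOL6 and LGALS3BP were past 1.5-fold higher. APOL6, an apolipoprotein L gene, was at 9.91 FPKM in the GGT7 library and 5.28 FPKM in the control library, a fold of 1.88 (1.70 to 2.07). LGALS3BP, a secreted glycoprotein, was at 38.9 FPKM in the GGT7 library and 22.8 FPKM in the control library, a fold of 1.70 (1.64 to 1.78). PARP12 was past 1.5-fold lower, with 3.15 FPKM in the GGT7 library and 5.49 FPKM in the control library, a fold of 0.574 (0.505 to 0.650). BST2, tetherin, was the most abundant of this list and level, with 214.9 FPKM in the GGT7 library and 220.2 FPKM in the control library. At the other end IFI44L had 4 counts in each library, XAF1 had 1 count in each and RSAD2 had 2 counts in the GGT7 library and 0 in the control library. The level of interferon-stimulated genes thus ran from a few counts in a library to that of BST2 in the same cells.

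**Figure D4:**
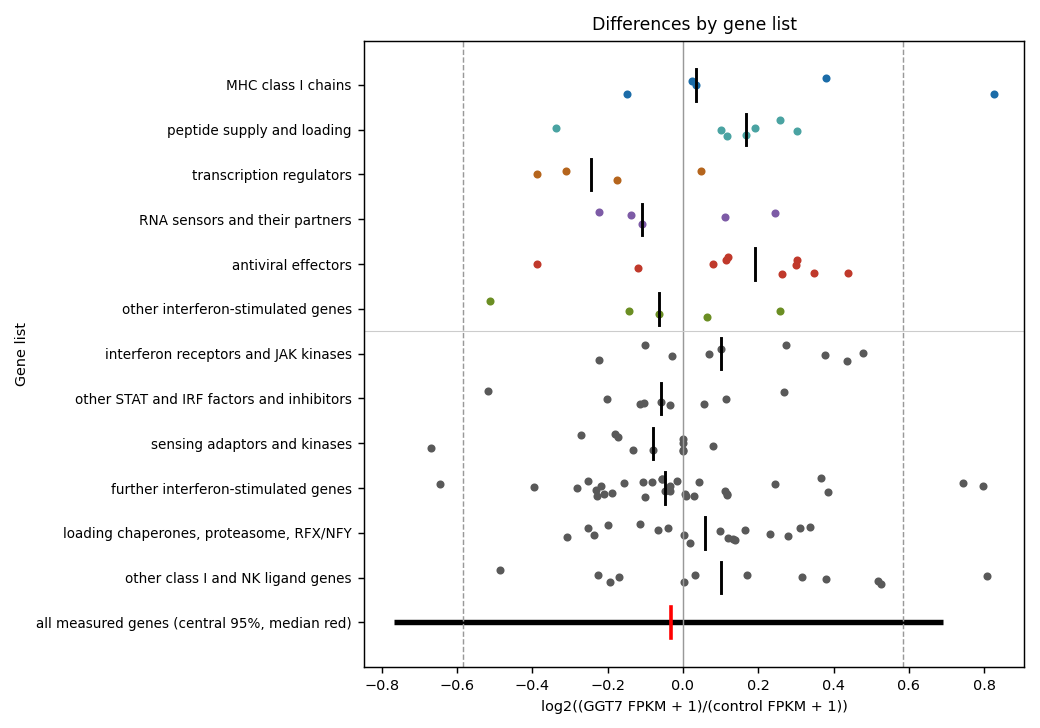
Log2 difference of (FPKM + 1), GGT7 minus control, for each measured gene of the 6 role groups (coloured) and of 6 further lists of the pathway (grey); black ticks are list medians, dashed lines mark 1.5-fold, and the bar at the foot spans the central 95% of all measured genes, -0.77 to 0.69. HLA-C, APOL6, LGALS3BP and ULBP1 lie above the upper dashed line and ZC3HAV1 and PARP12 below the lower one.

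The loading chaperones and the factors that bind the class I promoter were also close to the control. In their list 18 of 18 genes lay within 1.5-fold, against 91.1% of all measured genes, and the list median was 0.06. The ends of the list were RFXAP, a subunit of the factor that recruits NLRC5, at 1.36 (1.03 to 1.80), and HSPA5, the chaperone BiP, at 0.807 (0.788 to 0.826). Calreticulin, CALR, was at 0.871 (0.851 to 0.892). Among 12 measured class I-like genes and ligands of natural killer cell receptors, ULBP1, a ligand of the activating receptor NKG2D, was past 1.5-fold higher, with 111 counts in the GGT7 library and 65 in the control library, a fold of 2.24 (1.63 to 3.09). MICA, another ligand of NKG2D, was the lowest, with 185 counts in the GGT7 library and 354 in the control library, a fold of 0.685 (0.570 to 0.820). Of the other measured ULBP, RAET1 and MIC genes, ULBP2 was at 1.51 (1.14 to 2.01) and RAET1E at 1.68 (1.16 to 2.46). RAET1G was at 2.24 (1.19 to 4.34), MICB at 0.843 (0.748 to 0.948) and ULBP3 at 0.859 (0.555 to 1.31). On the log2(FPKM + 1) scale these others lay within 1.5-fold. The ULBP, RAET1 and MIC genes thus lay on both sides of the control, with MICA and MICB both lower. Of the MHC class II genes HLA-DMA alone was measured, at 1.11 FPKM in the GGT7 library and 1.41 FPKM in the control library, a fold of 0.786 (0.556 to 1.10).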

How the data were processed

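Total RNA of 2 AGS libraries, 1 per group, was sequenced on standard Illumina libraries, per the labels' protocols. HISAT2, StringTie 1.3.0, edgeR and GRCh38 are named in the submitters' processing notes, without roles. No source used here gives the annotation, the counter or its use of strand. For both libraries the authors deposited counts and FPKM values by gene, per the file headers. The deposited counts were handled as estimated counts because 1 broken line holds shifted cells. They are whole numbers in all 23376 intact rows and were not rounded; 2 of 23378 lines were left out. The authors' FPKM follows the library totals, with a ratio of FPKM per count of 1.31 between the libraries, the same as that of the summed counts.

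Symbols were those of the table, 31 in several rows were summed, and 23 turned into dates were restored from GENCODE 29, which also gave positions, overlaps of 100 exonic bases and transcripts. Differences are log2((GGT7 FPKM + 1)/(control FPKM + 1)), over genes with 1 FPKM in the higher library. Folds are ratios of FPKM with exact conditional (Clopper-Pearson) 95% intervals of the counts; they cover counting error only, since PCR copies of a molecule were not told apart. The limit that a count of 0 allows is 3 counts, equal to 0.292 CPM in the GGT7 and 0.223 CPM in the control library. No group test was run. Of the members, 21 overlap another gene or have a near-identical copy (BLAST 2.17.0, 95% identity over 30% of the transcript), and their values are uncertain where reads were shared. The members and lists were chosen with earlier results of these data known. All 44 members are given; from the other pathway lists, the largest difference each way and genes past 1.5-fold are named, with receptors, kinases and ligands, where they can be reported here, and a few others chosen after their values were seen. Alternatives were other pseudocounts and limits, TMM (edgeR 4.0.16), DESeq2 1.42.0 size factors, centring, and rows as deposited. Sums of HLA-B with HLA-C, of the IFIT genes and of IRF9 with AL136295.5 were added after seeing the data. The interval was tested on simulated counts that carry counting error only, so that test covers no other source of spread. Python 3.11.15, scipy 1.17.1, Biopython 1.88 and R 4.3.3 were used.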

Additional observations from a re-analysis of the deposited data

How the results depend on the processing

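No paired analysis was possible because each group held 1 library. The 23 of 36 members above 0 remained 23 under both other pseudocounts and with rows as deposited, and these could not change it. A pseudocount leaves the sign of a difference as it is, and no member had its symbol in several rows. TMM scaling, DESeq2 size factors and centring on the median of all measured genes raised every member slightly. No member above 0 could thus be lost, and only members below 0 could change sign. No measured member did so under a scaling, and the nearest, PARP9, went from -0.06 to at most -0.03. With a pseudocount of 0.1 FPKM, 1 member, IFIT1, was past 1.5-fold lower, with a log2 difference of -0.72. With the limit of 5 FPKM in the higher library, the median of the MHC class I chains was 0.21 and that of the transcription regulators -0.39, with fewer genes in both. Of the other counts and medians of the members and their role groups, 93 values under an alternative stayed within a wide limit. For counts the limit was a ratio of 1.5, and for medians it was the median counting bounds of the genes. The median of the members was thus within it at 0.04 with no filter on low values. So was that of the transcription regulators at -0.12 with a pseudocount of 5 FPKM. The 93 values include all values with rows as deposited, which could not differ for the members. At the limit of 5 FPKM the median of the other class I and natural killer ligand genes was -0.19 instead of 0.10. With a pseudocount of 5 FPKM the log2 differences of HLA-C, NLRC5, STAT2, IFIT1 and OAS1 were 0.65, -0.16, -0.23, -0.13 and 0.26. The sum of IRF9 and AL136295.5 had a log2 difference of 0.28, against -0.21 for IRF9 alone. Depth limits IFIT1, PSMB10 and the 8 members under 1 FPKM most. The limit of 1 FPKM depends on the authors' scale, which gave a median of 0.648 times an FPKM recomputed with exonic lengths.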
